A study of Mus musculus with 29 samples.

Results

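IRF8 binds an overlapping part of the genome in type 1 dendritic cells and in monocytes, and 2167 such shared places that carried no CEBPA peak in monocytes are described here. They were chosen from peak calls. IRF8 peaks of the libraries of one cell type were merged where they shared at least 1 base, and a merged peak counted for a cell type when both of its libraries held it. There were 19295 such sites in splenic classical type 1 dendritic cells (cDC1) and 4201 in bone marrow monocytes (Mo). Of these, 3466 cDC1 sites overlapped a Mo site, and the 2167 that shared no base with a CEBPA peak of either Mo library are the members. They made up 62.5% of the shared sites and 11.2% of the cDC1 sites, among 20030 IRF8 sites in all. The other 1299 shared sites overlapped a CEBPA peak, 14207 cDC1 sites overlapped no Mo IRF8 peak, and 363 Mo sites overlapped no cDC1 IRF8 peak.

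The study profiled C57BL/6 mouse cells by chromatin immunoprecipitation and sequencing, and 22 peak lists were used. Of these, 14 mark histone H3 acetylated at lysine 27 (H3K27ac) in 7 groups of 2 libraries, 4 mark IRF8 and 4 mark CEBPA. The labels call the libraries biological duplicates without saying that they came from separate animals, so p-values may measure technical spread. Wild-type groups were bone marrow LSK cells (Lin- Sca1+ CD117+), bone marrow lymphoid-primed multipotent progenitors (LMPP: Lin- Sca-1+ CD117+ and CD135+, lacking CD150 and IL-7R) and splenic cDC1 (XCR1+ CD172a- cells high for CD11c and MHC class II and lacking F4/80). Mice labelled Irf8 +56 kb enhancer-deficient (d+56kb, written d56kb in the plots) gave LMPP, granulocyte-monocyte progenitors (GMP: CD16/32+ CD117+ cells lacking CD115, Lin, Sca-1 and IL-7R) and monocyte-dendritic cell progenitors (MDP: Lin- Sca-1- CD117+ IL-7R- CD115+). Mice labelled IRF8-deficient (IRF8KO) gave LMPP. The IRF8 and CEBPA lists came from wild-type cells that were selected magnetically and not sorted further, cDC1 as Thy1.2- B220- CD49b- CD8a+ and Mo as CD117- CD135- Ly6G- CD115+. The gate of the cDC1 whose IRF8 was mapped thus differed from the gate of the cDC1 whose H3K27ac was mapped, GMP and MDP were d+56kb only, and H3K27ac of Mo was not analysed here.

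IRF8 is an interferon regulatory factor that cDC1 and monocytes need to develop. It binds DNA weakly alone, and it commonly binds with a partner: with another IRF at interferon-stimulated response elements (ISRE, repeats of GAAA), with the ETS factor PU.1 (gene Spi1) at ETS-IRF elements that join GGAA to GAA, or with BATF factors at AP-1-IRF elements. CEBPA is a leucine zipper factor of granulocyte and monocyte progenitors, and H3K27ac lies at active promoters and enhancers.

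Sequence could be read where a member lay over a gene start, so the stretches with ISRE or ETS-IRF letters at the starts of listed immune genes are shown to make the element visible. They are reference sequence from RefSeq (GRCm38.p6), printed 5′ to 3′ on the strand of the gene, with the letters of matches to GAAANNGAA or GGAANNGAA, or to their reverse complements, in capitals. Erap1 trims peptides for MHC class I (chr13:74639819-74639881, plus strand). Igtp (chr11:58199491-58199555, plus) and Irgm2 (chr11:58214882-58214946, plus) are interferon-inducible GTPases of defence within cells, Socs1 (chr16:10785580-10785644, minus) restrains cytokine signalling, and Ifit1 (chr19:34640755-34640838, plus) is an interferon-induced antiviral gene. Tlr6 (chr5:64959242-64959306, minus) and Tlr11 (chr14:50357767-50357825, plus) are Toll-like receptors for microbial products.
Erap1: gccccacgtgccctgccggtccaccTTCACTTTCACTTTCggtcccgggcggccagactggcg
Igtp: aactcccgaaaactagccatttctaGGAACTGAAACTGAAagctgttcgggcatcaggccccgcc
Irgm2: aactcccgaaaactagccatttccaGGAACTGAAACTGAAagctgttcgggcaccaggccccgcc
Socs1: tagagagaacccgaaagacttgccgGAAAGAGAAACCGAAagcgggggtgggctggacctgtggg
Ifit1: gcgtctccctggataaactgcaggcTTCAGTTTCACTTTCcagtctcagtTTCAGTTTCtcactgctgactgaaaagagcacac
Tlr6: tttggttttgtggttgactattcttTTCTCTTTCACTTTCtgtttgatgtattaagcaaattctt
Tlr11: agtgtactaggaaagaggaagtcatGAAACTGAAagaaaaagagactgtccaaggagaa

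The Tlr11 stretch held 1 ISRE-like match, and each of the others held at least 2 matches that overlap. The Igtp and Irgm2 stretches were the same at 63 of 65 bases and each held 1 ISRE-like and 1 ETS-IRF match that share letters. The Ifit1 stretch held 3 ISRE-like matches, and its site lies inside the span of Ifit1bl2, to which it was assigned. Over the 88 promoter windows of 300 bases (81 genes) that had at least 150 bases inside a member, 31 (35.2%) held GAAANNGAA on either strand, against 8.55% of all 32817 windows. GGAANNGAA was in 28 (31.8%, against 8.25% of all), and either motif was in 49 (55.7%, against 15.8%). Of windows over cDC1 sites with no Mo peak, 15.3% held GAAANNGAA and 16.1% held GGAANNGAA.

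The AP-1 letters TGANTCA were in 3 of the 88 member windows (3.41%) and in 15% of the windows over cDC1 sites with no Mo peak, beside 7.81% of all windows. The CEBP letters TTGCNNAA were in 6 (6.82%), beside 10.8% of all windows and in 8 of the 30 windows over shared sites with CEBPA (26.7%). In those 30 windows GAAANNGAA was in 12 (40%) and GGAANNGAA in 9 (30%). Member promoters thus held the letters of both IRF elements more often than promoters at large, as did the promoters of shared sites with CEBPA. The ETS core GGAA was in every member window and in 96.0% of all, so it says little here. These are matches to letters, given as description, and cover promoters only.

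By place, 153 of the 2102 members on chromosomes with annotated starts (7.28%) lay within 1 kb of the start of a protein-coding gene. The same share was 4.99% of shared sites with CEBPA, 4.98% of cDC1 sites with no Mo peak, 2.23% of Mo sites with no cDC1 peak and 5.44% of all IRF8 sites. A further 1085 members (50.1%) lay inside a gene, 301 (13.9%) within 10 kb of one and 628 (29%) farther away. The median distance to a start was 26162.5 bases. Members were 287 to 553 bases wide (median 298), and the median overlap with the Mo site was 283 bases.

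The edge of the rule was soft on the CEBPA side. The nearest CEBPA peak of a Mo library was at a median of 9787 bases, but 171 members had one within 500 bases and 40 within 100 bases, the closest 1 base away. Just outside the rule, 286 of the 1299 sites with CEBPA overlapped a peak of only 1 CEBPA library and 1013 overlapped peaks of both. Only 2 members overlapped their Mo site by less than 100 bases, the least being 47. CEBPA peaks of cDC1, where the lists hold 72 and 166 peaks in all, overlapped 1 member.

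Each member was given the closest protein-coding gene, counted from the gene's ends and up to 100 kb away, which gave 1744 genes and left 150 members without one. Most of these genes had 1 member (1514 genes), 196 had 2, 27 had 3, 6 had 4 and Elmo1, which drives engulfment and cell movement through Rac, had 6. A member was assigned to 7.97% of all 21887 protein-coding genes. Of these 1744 genes, 303 also had a shared site with CEBPA, which is 17.4% of the member genes and 29.1% of the 1040 genes of that class. Gene lists below are described against the 7.97%, with no test of enrichment.

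MHC class I presentation stood highest, with 8 of 18 genes (44.4%). They were the immunoproteasome subunits Psmb8, Psmb9 and Psmb10, the peptide transporter Tap2, tapasin (Tapbp), Erap1, and the heavy chains H2-K1 and H2-Q7, and 6 of the 8 sites were at promoters. Shared sites with CEBPA lay at 1 of the 18 and cDC1 sites with no Mo peak at 5. Of the MHC class II pathway, 5 of 17 genes (29.4%) had a member and none at its promoter: H2-Aa, H2-Ab1, H2-Oa, the invariant chain Cd74 and cathepsin S (Ctss). Factors that partner IRF8 gave 12 of 28 (42.9%), among them Spi1, Ikzf1, Runx1, Runx3, Batf, Bcl6, Nfil3, Klf4 and Cebpb, and cDC1 sites with no Mo peak lay at 21 of these 28. Interferon response genes gave 14 of 43 (32.6%), 7 with a promoter site. Toll-like receptor and innate sensing genes gave 10 of 31 (32.3%), namely Tlr2, Tlr4, Tlr6, Tlr7, Tlr8, Tlr9, Tlr11, Unc93b1, Pycard and Naip5. Sites of cDC1 with no Mo peak lay at 21 of these 43, 14 of these 31 and 12 of the 17 class II genes. Shared sites with CEBPA lay at 3, 8 and 2 of them.

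Lists of the 2 cell types that chose the sites also stood above the share of all genes, which was not particular to the members: cDC1 sites with no Mo peak lay at 20 of 24 cDC1 genes and 15 of 26 monocyte genes, beside 6390 of all 21887 genes, and shared sites with CEBPA at 9 of 26 monocyte genes, beside 1040 of all genes. Monocyte and macrophage genes gave 11 of 26 (42.3%), among them Ly6c2, Ccr2, Fcgr1, Sirpa and Vcan, phagocyte oxidase and killing genes gave 5 of 13 (38.5%), and cDC1 genes gave 7 of 24 (29.2%). Lists of other cells were nearer to the share of all genes: 4 of 23 (17.4%) for stem and multipotent progenitor genes, 2 of 16 (12.5%) for T and NK cells, 2 of 19 (10.5%) for neutrophil granules, 1 of 11 (9.09%) for B cells, 1 of 14 (7.14%) for plasmacytoid dendritic cells and 1 of 15 (6.67%) for housekeeping genes. The rest were IRF family genes with 3 of 9 (33.3%), interferon and cytokine signalling genes with 8 of 28 (28.6%), pan-DC genes with 5 of 18 (27.8%) and lysosome genes with 7 of 26 (26.9%). In that order, cDC1 sites with no Mo peak lay at 8, 18, 13 and 15 genes of these lists, and shared sites with CEBPA at 2, 8, 2 and 12. Each of these classes lay at 6 of the 13 phagocyte oxidase and killing genes.

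**Figure D1:**
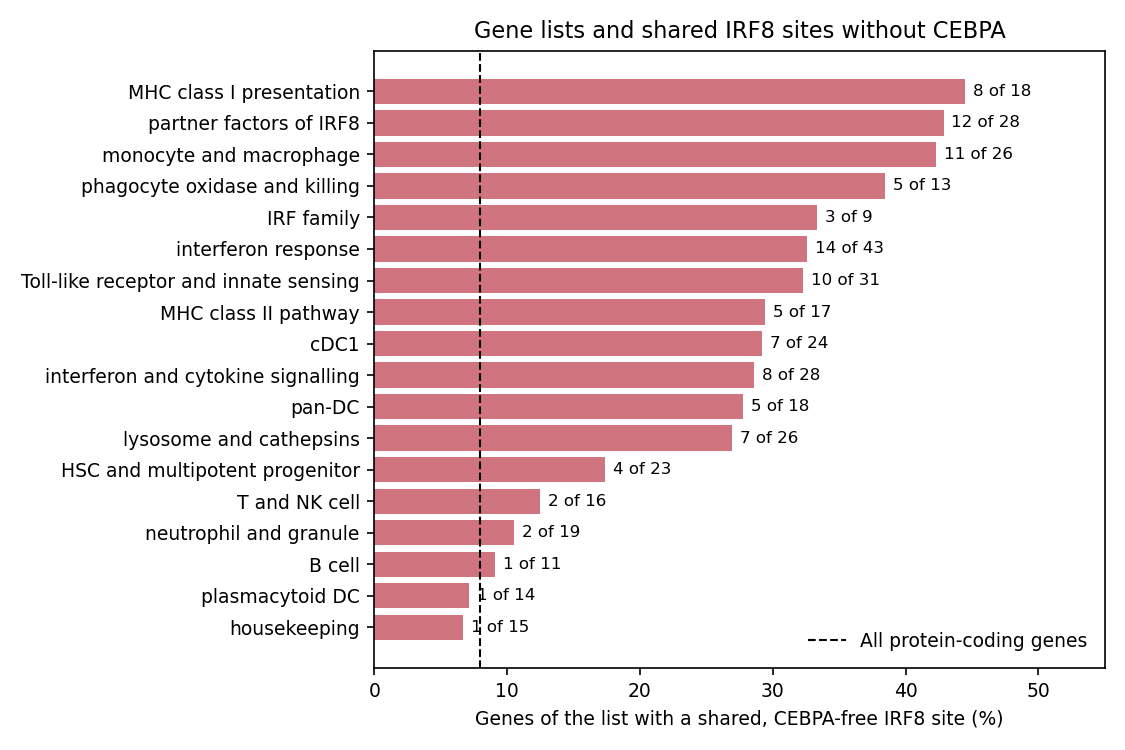
Horizontal bars give the share of genes in each list (percent, x axis) that were assigned at least 1 shared IRF8 site without CEBPA, with the counts beside each bar, and the dashed line is the 7.97% of all protein-coding genes. MHC class I presentation (44.4%), partner factors (42.9%) and monocyte genes (42.3%) reach farthest right, and the plasmacytoid dendritic cell and housekeeping bars end left of the line.

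The H3K27ac lists held 1.26 to 10.9 M tags each and covered 17.7 to 52.1 Mb, and the depth differed between groups. The IRF8KO LMPP libraries were the shallowest (1.26 to 1.47 M tags, 17.7 to 18.4 Mb), against 2.0 to 3.65 M tags and 22.2 to 25 Mb in wild-type LMPP, 35.0 to 38.1 Mb in d+56kb LMPP and 44.5 to 52.1 Mb in LSK. The 2 cDC1 libraries had 52.3% and 16.4% of their tags in regions. All 7 cDC1 markers were acetylated in both cDC1 libraries, over 184 and 142 kb, and 0 of 6 neutrophil markers were in both. Other panels were not empty there. Acetylated in both cDC1 libraries were 4 of 6 B cell, 3 of 6 monocyte and 3 of 5 T and NK cell markers. The same held for 2 of 4 plasmacytoid dendritic cell and 2 of 5 stem cell markers. In both LSK libraries 6 of 7 cDC1 markers were acetylated, over 22.7 and 19.9 kb. The 4 kb window centred 56 kb past the Irf8 start held called H3K27ac in all 6 wild-type libraries (642 to 2313 bases) and none in the 6 d+56kb or the 2 IRF8KO libraries. The lists do not show whether the IRF8 protein was lost.

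A member was acetylated in a library when it overlapped a called H3K27ac region by at least 1 base. This held for 44.9% ± 9.46 of the members in cDC1 (SD, n = 2 libraries), 36.2% ± 5.61 in d+56kb MDP, 33.9% ± 2.81 in LSK, 26.3% ± 0.392 in d+56kb GMP, 24.8% ± 1.79 in d+56kb LMPP, 18.1% ± 0.522 in wild-type LMPP and 11.5% ± 1.14 in IRF8KO LMPP. The 2 cDC1 libraries were far apart (51.5% and 38.2%), and the lower of them lay below the higher MDP library (40.2%), so cDC1 and MDP overlapped. MDP (32.3% and 40.2%) also overlapped LSK (35.9% and 31.9%), and GMP (26.6% and 26.1%) overlapped d+56kb LMPP (26.1% and 23.5%). Wild-type LMPP and IRF8KO LMPP stood below every other group and apart from each other. With 2 libraries a group no exact test of one pair of groups can reach 0.05, and the covered length given above also differed between the groups; its part in this order was not tested.

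The acetylated share was then compared with the other classes of IRF8 sites within the same libraries, so that depth was common to both sides. Over the 7 groups the members averaged 28.0% and shared sites with CEBPA 37.0%. Members were lower in 7 of 7 groups, with a mean difference of -8.99 ± 7.09 percentage points (SD over groups) and an exact two-sided sign-flip permutation p of 0.0156 (adjusted over 3 comparisons, 0.0234), and 0.0156 is the smallest p that 7 groups allow. The gap was widest in d+56kb MDP (-20.7 points, 36.2% against 57.0%) and narrowest in IRF8KO LMPP (-1.89 points, 11.5% against 13.4%). In GMP the shares were 26.3% and 41.5%, and in cDC1 44.9% and 56.4%.

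Against cDC1 sites with no Mo peak, members were higher in 7 of 7 groups, by 8.23 ± 5.56 points (exact permutation p = 0.0156, adjusted 0.0234). In cDC1 itself the classes were 0.387 points apart (44.9% and 44.5%), less than the spread between the 2 libraries, while in d+56kb MDP they were 17.7 points apart (36.2% and 18.5%). Against Mo sites with no cDC1 peak the mean difference was 9.29 ± 12.1 points, with members higher in 5 of 7 groups, and it did not pass (exact permutation p = 0.0625). That difference ran from 34.0 points in cDC1 (44.9% against 10.9%) to -2.58 points in GMP (26.3% against 28.9%). Groups share genotypes and cell types in part, so the 7 are not fully independent.

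**Figure D2:**
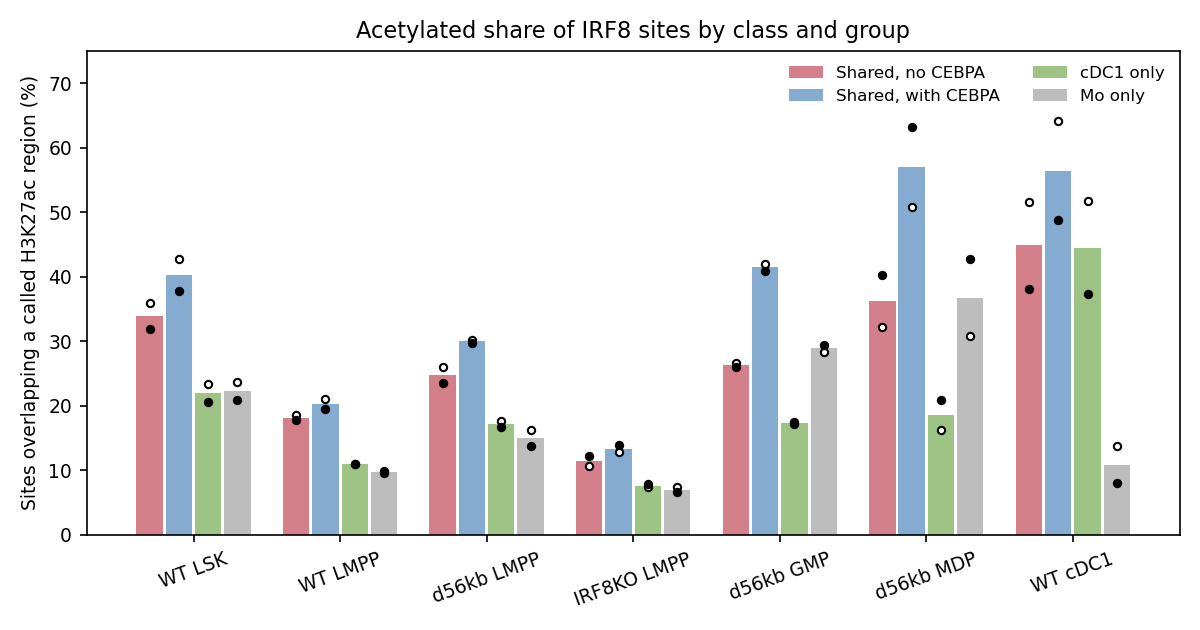
Bars give the share of IRF8 sites (percent, y axis) overlapping a called H3K27ac region, as the mean of 2 libraries for 4 classes of sites in each of 7 groups, and open and filled points are replicates 1 and 2. The shared sites without CEBPA (red) lie below those with CEBPA (blue) in every group, most so in d+56kb MDP (36.2% against 57.0%), and level with the cDC1-only sites (green) in cDC1.

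Promoter members carried acetylation in most libraries. In LSK 78.8% of the 153 promoter members were acetylated against 30.5% of the others, in cDC1 78.4% against 42.3%, and in IRF8KO LMPP 46.1% against 8.84%. Sites away from promoters thus varied over a wider ratio across the groups than promoter sites did. No library acetylated 703 members (32.4%), 888 were acetylated in 3 to 13 libraries and 105 (4.85%) in all 14, 45 of them promoters. The share with no acetylation in any library was 15.8% for shared sites with CEBPA, 38.1% for cDC1 sites with no Mo peak and 47.7% for Mo sites with no cDC1 peak.

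**Figure D3:**
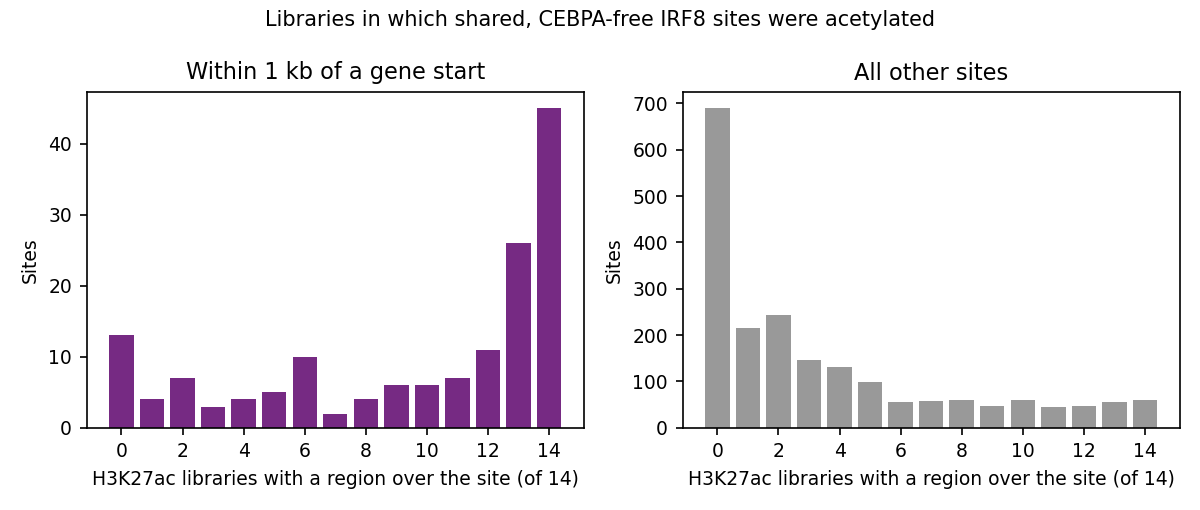
Bars count the shared IRF8 sites without CEBPA (y axis) by the number of the 14 H3K27ac libraries with a called region over the site (x axis), for promoter sites and other sites. Other sites pile up at 0 (690 sites) and promoter sites at 14 (45 sites, against 13 at 0).

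Requiring both libraries of a group, 1024 members (47.3%) were acetylated in no group, 278 (12.8%) in cDC1 and no other group, 105 in all 7 groups and 89 in every group but IRF8KO LMPP. Another 70 were acetylated in cDC1 and MDP alone, 58 in MDP alone and 56 in LSK alone. The share in no group was 30.6% of shared sites with CEBPA and 55.4% of cDC1 sites with no Mo peak, and the share in cDC1 and no other group was 12.9% and 20.6%, so on the latter the members lay near the sites with CEBPA. LSK and cDC1 had 421 acetylated members in common, and 216 were acetylated in LSK and not in cDC1. Between the d+56kb progenitors 224 members were acetylated in MDP and not GMP, and 91 in GMP and not MDP. Wild-type LMPP had 164 that IRF8KO LMPP lacked, and IRF8KO LMPP had 10 that wild-type LMPP lacked. These counts between pairs of groups were made for the members only and have no background among all IRF8 sites. By group, 611 members were acetylated in MDP and 478 in GMP, beside 4015 and 3636 of all 20030 IRF8 sites. In wild-type and IRF8KO LMPP there were 300 and 146 members, beside 1923 and 1092 of all sites. In LSK and cDC1 there were 637 and 811 members, beside 4483 and 7405. The part of the covered length in these counts was not tested.

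Differences at single sites were tested with limma on the log2 of covered bases, meaning the bases of the 2 kb window centred on a site that lie in called H3K27ac regions, with 500 bases added. A window can hold from 0 to 2000 covered bases, so no log2 difference can exceed 2.32. The test ran over 11695 of the 20030 IRF8 sites, those with any covered base in at least 2 libraries, and 1378 of the 2167 members were among them. A site was called at a Benjamini-Hochberg adjusted p under 0.05 over all sites tested. A site with covered bases in 1 group alone passed the filter through that group and had to differ, and the SE of a window at 0 or 2000 in every library comes from the ends of a bounded measure. For such sites the values are given without a test.

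In cDC1 against wild-type LMPP, 610 members rose and 45 fell. Of all IRF8 sites tested, 53.7% were called higher and 2.68% lower, and of the members tested 44.3% and 3.27%. Here and against LSK, the higher shares include sites that passed the filter through cDC1 alone. Acetylated in cDC1 and no other group were 12.8% of the members and 20.6% of cDC1 sites with no Mo peak. The part of such sites in the gap was not tested. The smaller share of rises was not particular to the members. Called higher were 47.2% of shared sites with CEBPA and 59.1% of cDC1 sites with no Mo peak. The median log2 difference was 0.76 for the members tested and 1.1 for all. In 441 of the members that rose neither LMPP library had a covered base, and 83 went from 0 to 2000, so the highest folds are tied at the ceiling. Scaling libraries to the same covered length gave 501 higher and 116 lower.

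The dendritic cell genes were among the risen sites. At Clec9a, the receptor for dead-cell actin (chr6:129419657-129419956), both cDC1 libraries had 2000 covered bases and all 12 other libraries had 0. At Xcr1, the chemokine receptor that marks cDC1 (chr9:123856821-123857112), the values were the same. The promoter site of Tlr11, which senses profilin of parasites, had 2000 bases in both cDC1 libraries and 0 in both LMPP libraries, and at Cadm1, an adhesion molecule of cDC1, the values were 1118 and 772 against 0 and 0 (log2 difference 1.52). Among the 12 progenitor libraries these 4 windows held covered bases only at Tlr11, with 36 in the first IRF8KO LMPP library.

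Of the 9 members at cDC1 genes, 8 were tested, and 5 rose against both LMPP and LSK and none fell: Clec9a, Xcr1, Tlr11, Cadm1 and Btla, an inhibitory receptor of the immunoglobulin family. The same 5 were acetylated in both libraries of cDC1 and of no other group. Clec9a, Xcr1, Tlr11 and Cadm1 passed the filter only through cDC1, so their rises are given without a test. The site of Ly75, the endocytic receptor DEC-205, had no acetylation in any library. At Fgd2, an exchange factor for Cdc42, a site 16012 bases from the gene was acetylated in all 14 libraries, and the window at its promoter site had 1146 and 1034 bases in LSK and 1205 and 501 in cDC1.

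Of 12 members at partner factor genes 11 were tested, and in cDC1 against LMPP 6 rose (Batf, Bcl6, Fos, Ikzf1, Nfil3 and Runx1) and 1 fell (Cebpb). Batf, Bcl6 and Nfil3 had covered bases in cDC1 alone, so they passed the filter through cDC1 and had to differ. Bcl6, a repressor, had 1913 and 1688 bases in cDC1 and 0 in both LMPP libraries (2.20). Nfil3, a factor needed early for cDC1, had 786 and 774 against 0 and 0 (1.36). Ikzf1 (Ikaros) had 1226 and 1183 against 0 and 0 (1.77). Its window was 0 in every library outside cDC1 and MDP, so no test is given. At Cebpb, the myeloid relative of Cebpa, the cDC1 libraries had 0 and 0 and the LMPP libraries 501 and 649 (-1.1 ± 0.27, log2 ± SE, limma adjusted p = 0.00824). The LSK libraries had 1380 and 1608 bases at Cebpb.

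Antigen processing and lysosome sites followed. Psmb9 had a site 1307 bases from the gene with 2000 bases in both cDC1 libraries and 0 in both LMPP libraries (2.32 ± 0.32, limma adjusted p = 0.000344). Ctss, the protease that trims the invariant chain, had 1439 and 1146 against 0 and 0 (1.84), and Npc2, a lysosomal cholesterol carrier, had 1630 and 1647 against 0 and 0 (2.10). The Npc2 window was 0 in every LSK library and every LMPP library of any genotype. Its SE thus comes largely from the floor of the measure, and no test is given. Of the 8 lysosome members tested 6 rose and none fell, against LMPP. The Ctsc sites among the 6 had covered bases in cDC1 alone, and outside cDC1 the Ctss window had them only in the second MDP library (924). The Ctsc and Ctss sites thus passed the filter only through cDC1. Of the 8 MHC class I members 4 rose (Psmb9, Psmb8, H2-Q7 and Erap1), and 3 of these calls were lost with scaled libraries. Without the first cDC1 library the Psmb8 and Erap1 calls were lost, and Erap1 also without the first LMPP library.

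Signalling and sensing genes gave 5 higher of 10 and 5 higher of 11 tested, and none lower, which is near the 44.3% of the members tested and below the 53.7% of all IRF8 sites. The counts of the other lists in this comparison are as small and are read against the same shares. Socs2, an inhibitor of cytokine signalling, had 1561 and 1465 bases in cDC1 and 0 in both LMPP libraries (2.01). Its window had covered bases in cDC1 alone, so it passed the filter through that group. Ifnar2, a chain of the type I interferon receptor, had 1213 and 909 against 0 and 0 (1.64). The promoter of Tlr2 had 1765 and 1172 against 0 and 0 (1.96 ± 0.19, limma adjusted p = 4.3e-05). Csf3r, the receptor for G-CSF and a neutrophil list gene, had a site with 1840 and 1651 against 0 and 0 (2.17). The Ifnar2 and Csf3r windows were 0 in every LSK library and every LMPP library of any genotype, so their values are given without a test. Markers of neutrophils covered 0.501 and 0 kb in the cDC1 libraries. Ifnar2, Tlr2 and Csf3r were not acetylated in cDC1 alone. The d+56kb MDP libraries had 1106 and 1330 bases at Ifnar2, 1791 and 1991 at Tlr2 and 1925 and 1644 at Csf3r. At Tlr2 the LSK libraries had 1091 and 961, and the site was not called in cDC1 against LSK.

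A fall at the ceiling of the measure was found at Erg, an ETS factor of stem cells, inside the gene at chr16:95453586-95453885. Both cDC1 libraries had 0 covered bases and each of the 12 progenitor libraries had 2000 (-2.32 against LMPP). This member was thus bound by IRF8 by the authors' calls in cDC1 and Mo and acetylated in every progenitor library, with no acetylation in the cDC1.

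**Figure D4:**
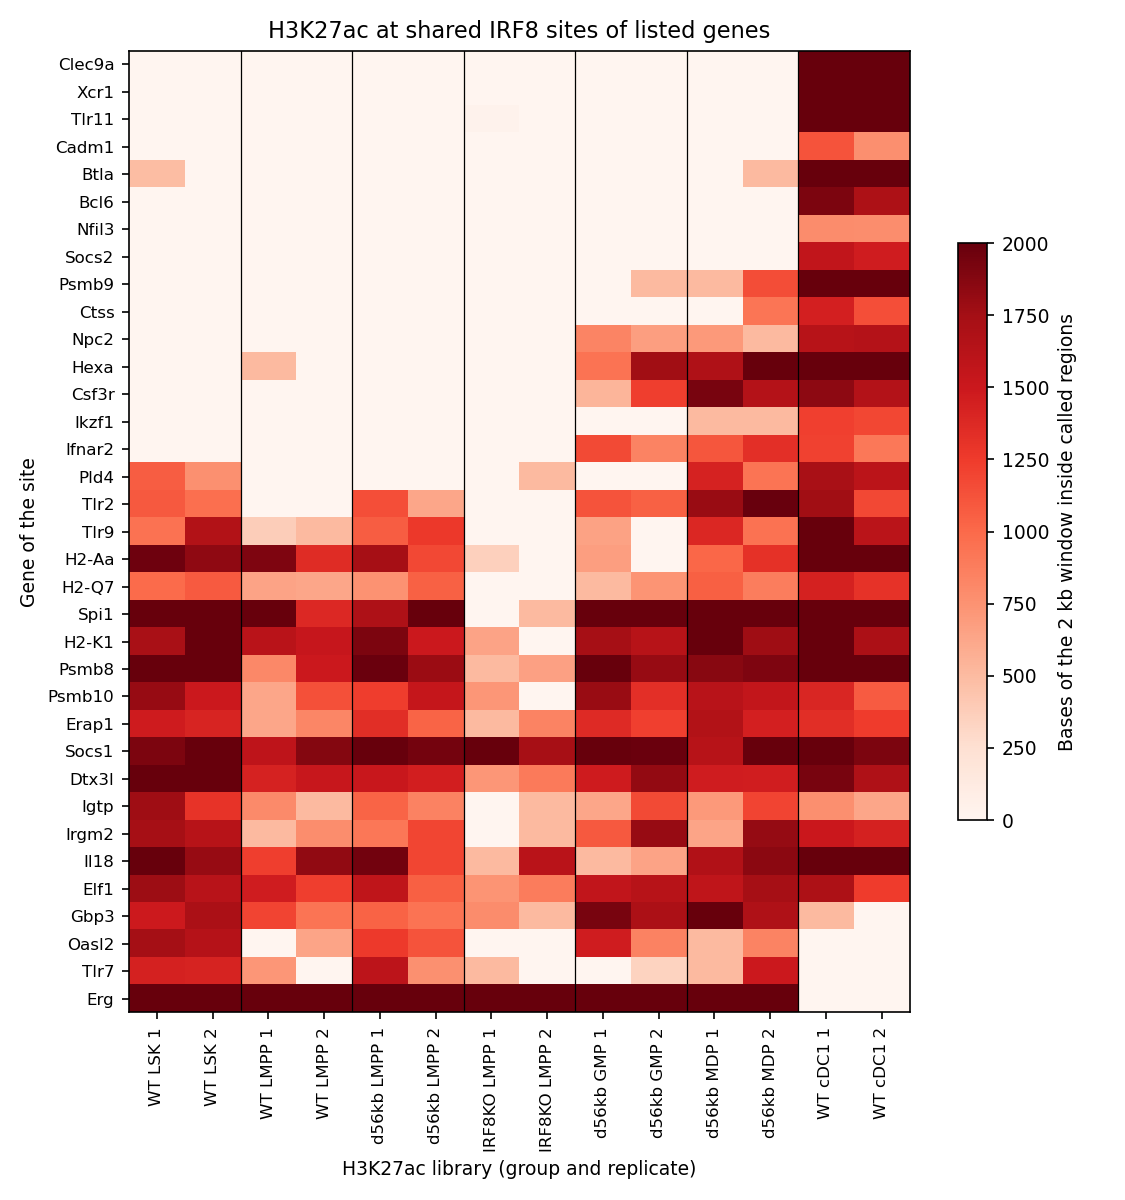
Each row is 1 shared IRF8 site without CEBPA, named by its gene, each column 1 H3K27ac library, and the colour gives the bases of the 2 kb window inside called regions (0 to 2000). Clec9a, Xcr1 and Tlr11 are dark in cDC1 alone, Socs1 is dark in all 14 libraries, and Erg is dark in all 12 progenitor libraries and blank in cDC1.

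In cDC1 against LSK, 383 members rose and 158 fell, which is 27.8% and 11.5% of the members tested, beside 38.8% and 9.54% of all IRF8 sites tested. Without the first LSK library 104 fell. Called higher were 28.9% of shared sites with CEBPA and 44.9% of cDC1 sites with no Mo peak. The median log2 difference was 0.08 for the members tested and 0.48 for all. This comparison shares the cDC1 libraries with the one before. Clec9a, Xcr1, Bcl6, Nfil3, Ikzf1, Socs2, Ifnar2, Npc2 and Csf3r had 0 bases in LSK too and their differences were the same. Erg had 2000 in both LSK libraries, and the promoter of Oasl2, an antiviral gene of the OAS family, had 0 and 0 bases in cDC1 and 1746 and 1634 in LSK (-2.13 ± 0.35, limma adjusted p = 0.00114). Of 14 interferon response members tested, 2 rose (Psmb9 and Trim21) and 3 fell (Gbp3, Isg20 and Oasl2). Trim21 had covered bases in cDC1 alone and passed the filter through that group. The Isg20 call was lost without either LSK library or without the second cDC1 library.

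In wild-type LMPP against LSK, 175 members fell and 1, with no gene within 100 kb, rose. The 175 are 12.7% of the members tested, beside 12.3% of all IRF8 sites tested (0.0171% of all were higher), so the share was near the background. Wild-type LMPP libraries also covered 22.2 to 25 Mb against 44.5 to 52.1 Mb in LSK. With libraries scaled to the same covered length 57 members fell and 28 rose, and without the first LSK library 54 were called. Without the second LSK library 98 were called, and without the first or second LMPP library 112 or 93.

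In 104 of the 175 neither LMPP library had a covered base. Mdm1 had 0 and 0 bases against 1994 and 2000 in LSK (-2.32 ± 0.17, limma adjusted p = 0.000113). Hbb-bt, an adult beta-globin gene, had 0 and 0 against 1673 and 1601 (-2.10 ± 0.11, adjusted p = 1.14e-05), and the Tlr2 promoter had 0 and 0 against 1091 and 961 (-1.61 ± 0.19, adjusted p = 0.00176). At Irf2, a paralogue of IRF1 that restrains interferon responses, the site 71 bases from a CEBPA peak had 0 and 0 against 1828 and 1763 (-2.20 ± 0.38, adjusted p = 0.0104), a call lost without the first LSK library. The Erg window was full in both groups.

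In d+56kb against wild-type LMPP, 18 members rose and 2 fell. The 18 are 1.31% of the members tested, beside 2.57% of all IRF8 sites tested, and the 2 stand beside 0.0513% of all. The d+56kb libraries covered 35.0 to 38.1 Mb against 22.2 to 25 Mb, and with scaled libraries 14 rose and 3 fell. Without the first or the second wild-type LMPP library 40 or 31 were called, and without the second d+56kb LMPP library 41. The Tlr2 promoter had 1147 and 626 bases in d+56kb LMPP and 0 in both wild-type libraries (1.45 ± 0.19, limma adjusted p = 0.00766). Hbb-bt had 983 and 1401 against 0 and 0 (1.75 ± 0.11, adjusted p = 0.000154), and Gm38821 1228 and 1375 against 0 and 0 (1.85 ± 0.11, adjusted p = 0.000144). Of the 8 MHC class I members and 14 interferon response members tested, none was called.

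In IRF8KO against wild-type LMPP, which shares the wild-type libraries with the comparison above, 46 members fell and 4 rose. The 46 are 3.34% of the members tested, beside 2.85% of all IRF8 sites tested, so here too the share was near the background. Higher calls were 0.197% of all sites. The IRF8KO libraries were the shallowest of the 14, and with scaled libraries 41 fell and 9 rose. Without the second IRF8KO library 94 were called, and the range over the 4 libraries left out was 42 to 94.

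In 19 of the 46 neither IRF8KO library had a covered base. At Ggta1, which builds the alpha-gal sugar, 1 of its 4 members had 0 and 0 bases against 1260 and 1297 (-1.83 ± 0.19, limma adjusted p = 0.00173), and another of the 4 had 2000 bases in both libraries of both groups. The promoter of H2-Q7, a class I heavy chain, had 0 and 0 against 647 and 628 (-1.19 ± 0.13, adjusted p = 0.0028). At Cd34, a surface marker of progenitors, the site 58847 bases from the gene had 0 and 0 against 501 and 501 (-1.0 ± 0.14, adjusted p = 0.00675). Tut4, a uridylating enzyme, had 35 and 0 against 1402 and 1197 (-1.80 ± 0.19, adjusted p = 0.00191). The rises were at Smo, Hbb-bt, Gm38821 and Fpr1, each with at most 501 bases in a library. The Smo window had covered bases in IRF8KO LMPP alone, so it passed the filter through that group and had to differ.

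The site inside Spi1, the gene of PU.1, had 0 and 501 bases in IRF8KO LMPP, 2000 and 1376 in wild-type LMPP and at least 1683 in each of the other 10 libraries (-1.61 ± 0.28, limma adjusted p = 0.0225). The call was lost with scaled libraries and without the first wild-type LMPP library, with 1 kb windows and with 100 bases added. Of the 8 MHC class I members 1 fell (H2-Q7) and none rose, and of the 14 interferon response members tested 1 fell, Dtx3l, a ubiquitin ligase, with 720 and 892 against 1427 and 1522 (-0.60 ± 0.09, adjusted p = 0.0129). The Dtx3l call was lost with scaled libraries and without the second wild-type LMPP library. Socs1 had 2000 and 1732 bases in IRF8KO LMPP and 1580 and 1876 in wild-type LMPP and was not called.

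In MDP against GMP, both d+56kb, 110 members rose and 11 fell. The 110 are 7.98% of the members tested, beside 4.69% of all IRF8 sites tested, and the 11 are 0.798% beside 1.34%. Among shared sites with CEBPA 11.6% of those tested were called higher, among Mo sites with no cDC1 peak 12.4% (22 of 177), and among cDC1 sites with no Mo peak 2.56%. Members thus lay below the other classes bound in Mo. The count rests on a spread pooled over the 14 libraries: fitted on the 4 libraries alone limma called 0 members, with 247 at an unadjusted p under 0.05. Leaving out single libraries of the 2 groups gave 105 to 177 calls, and the 11 lower became 31 without the second MDP library and 7 without the second GMP library.

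In 91 of the 110 neither GMP library had a covered base. The highest was at Gm9733 with 1771 and 2000 bases against 0 and 0 (2.25), and next to it stood Capn13, a calpain protease, with 1780 and 1935 against 0 and 0 (2.24). A site at Asph, a hydroxylase of the endoplasmic reticulum, had 1599 and 1848 against 0 and 0 (2.15). Among listed genes, Jak1, the kinase of interferon receptors, had 1169 and 1473 against 501 and 501 (0.86). Ikzf1 had 501 and 501 against 0 and 0 (1.0). The Jak1 window was 0 in every library outside GMP and MDP, and the Ikzf1 window in every library outside cDC1 and MDP. Their SE thus comes largely from the floor of the measure, and the values are given without a test. The SE at Gm9733, Capn13 and Asph were about as small (0.06 to 0.08, beside 0.07 at Jak1), and the fit on the 4 libraries called no member. Their values too are given without a test. Of the 8 cDC1 members tested none was called between MDP and GMP. Lower in MDP were Aff1, of the super elongation complex, with 0 and 0 against 800 and 1216 (-1.58 ± 0.14, limma adjusted p = 0.000326) and Pip5k1b, a lipid kinase, with 0 and 0 against 501 and 710 (-1.14).

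**Figure D5:**
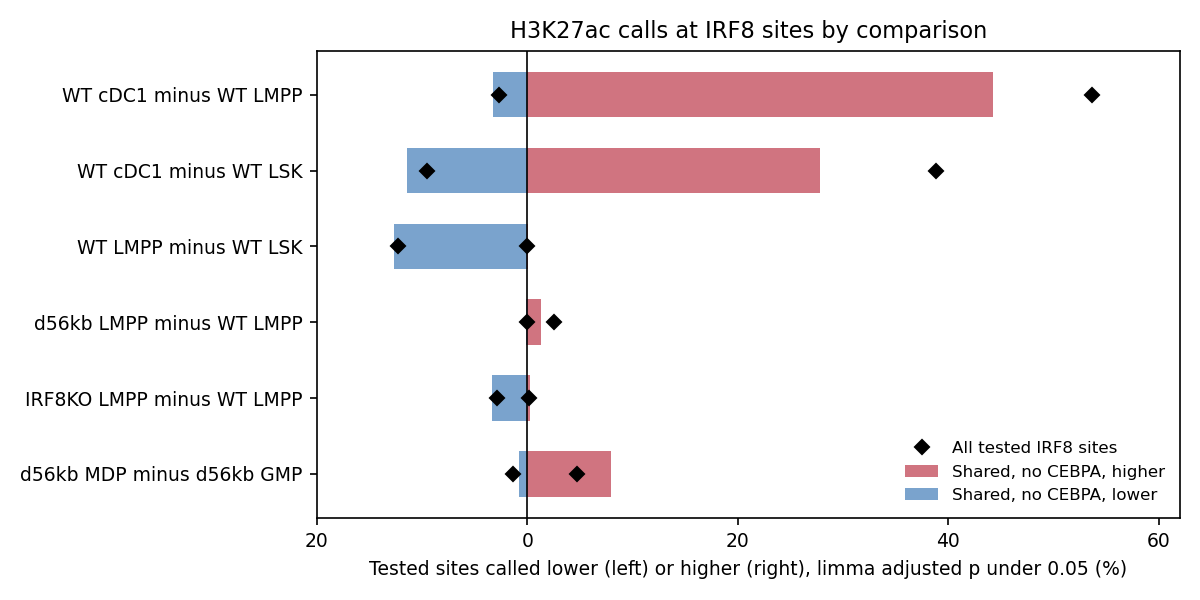
For each of 6 comparisons, bars give the share (percent, x axis) of the 1378 tested members called higher (right, red) or lower (left, blue) by limma at an adjusted p under 0.05, and diamonds give the same share of all 11695 tested IRF8 sites. Members fall short of the diamonds for cDC1 against LMPP and LSK (44.3% against 53.7%, 27.8% against 38.8%). They pass them for MDP against GMP (7.98% against 4.69%) and lie near them for IRF8KO against wild-type LMPP (3.34% against 2.85%). Shared sites with CEBPA, not drawn, had 47.2% higher in cDC1 against LMPP, 28.9% against LSK and 11.6% in MDP against GMP.

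Sites acetylated in all 14 libraries included the starts of Socs1, with 1580 to 2000 covered bases in every library, and of Erap1, with 501 to 1661. They also included the starts of Psmb8, Dtx3l, Tlr6 and the cytokine Il18, and sites inside Parp14, an interferon-induced ADP-ribosyl transferase, and Unc93b1, the chaperone of endosomal Toll-like receptors. The windows at Lmo2, a cofactor of stem cell factors, at Rhog, a small GTPase, and at Supt4a, a transcription elongation factor, were full in all 14. At the Igtp and Irgm2 promoters, whose printed stretches were nearly identical, 13 of 14 libraries were acetylated at each. The exception was the first IRF8KO LMPP library.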

How the data were processed

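H3K27ac, IRF8 and CEBPA were analysed from 22 peak lists, and 7 input samples were not analysed here. Reads were aligned with Bowtie 1.1.2 and peaks called with HOMER 4.9 on mm10 (GRCm38), per the submitters' processing notes. The deposited lists give positions in bases on mm10, 1 list per library, with a score column that is constant, so peak heights were not used. Per the file headers, H3K27ac regions were called against input and stitched, CEBPA peaks against input, and IRF8 peaks without input, so IRF8 calls lack that control. A covered window says where a region was called, not how strong it was.

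Merging, overlaps (at least 1 base), places and motif matches were computed in Python 3.11.15 with RefSeq tables of GRCm38.p6. Covered bases of 2 kb windows (log2 with 500 added) were fitted by limma 3.58.1 in R 4.3.3 over 14 libraries with trend and robust variance (7 residual degrees of freedom) and without scaling, after tests on simulated data. Groups come from the sample labels. Shares were compared by exact sign-flip permutation over 7 groups. Genes named were the 10 highest and 10 lowest called sites per comparison, genes of 18 lists (356 genes), those with most sites and those acetylated in all libraries; ties at the ceiling were ordered by position, and listed genes are named there instead. A site's gene is a neighbour, not a shown target. Members and lists were chosen with earlier results of these data known. Alternatives covered scaling, window, added bases, filter, pairing, the 4-library fit, and each library left out.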

Additional observations from a re-analysis of the deposited data

How the results depend on the processing

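Counts of called members were within 1.5 times the values given above under every alternative for cDC1 against LMPP and against LSK, where leaving out libraries gave 504 to 696 and 469 to 530. LMPP against LSK (176 called) gave 85 with scaled libraries, 113 with 1 kb windows, 114 without the filter, and 54 to 112 with a library left out. d+56kb against wild-type LMPP (20) gave 36 with 4 kb windows, 160 when fitted on its 4 libraries, and 23 to 41 with a library left out. IRF8KO against wild-type LMPP (50) gave 164 on its 4 libraries and 42 to 94, and MDP against GMP (121) gave 0 on its 4 libraries and 105 to 177. Scaling moved the median of all sites from 1.1 to 0.86 for cDC1 against LMPP and from -0.20 to 0 for LMPP against LSK. Same-numbered libraries did not vary together (21 correlations from -0.05 to 0.04, none over 0.1), and with a replicate block the counts were 640, 531, 158, 17, 39 and 109 in the order of the comparisons. The difference from Mo sites with no cDC1 peak passed with site midpoints (8.62 points), with CEBPA required in both libraries (9.76), and without replicate 2 (8.36 to 10.2 over replicates left out). The difference from sites with CEBPA was -9.11 and -8.87 with a replicate left out and -11.2 to -7.74 under the other settings, lower in 7 of 7 groups each time. That from cDC1-only sites was 8.15 and 8.31, and 7.12 to 8.81 under the other settings, and members were higher in 6 of 7 groups for sites over 2 kb from a start and without replicate 2. Members numbered 2268 to 2930 when 1 IRF8 or CEBPA library was left out, the most without the first Mo IRF8 library. Of 188 site differences, 118 kept their call under every setting except the 4-library fit; Erap1 in LMPP against LSK turned to 0.0182 with scaled libraries. The causes were not tested. The IRF8KO and wild-type LMPP libraries covered the least length.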

Other observations

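Of the 16 members at monocyte and macrophage genes 11 were acetylated in no group, beside 1024 of all 2167 members (47.3%) and 62.3% of Mo sites with no cDC1 peak. Both sites at Ly6c2, whose product is the Ly6C antigen of monocytes, and the site at Fcgr1, an Fc receptor, had 0 covered bases in all 14 libraries. At Tgfbi, a matrix protein of monocytes, the site had 1642 and 1747 bases in d+56kb MDP and at most 912 in any other library, and at Sirpa, an inhibitory receptor of myeloid cells, 1 of 3 sites was acetylated in both libraries of GMP and of MDP and in 2 other libraries. H3K27ac of Mo was not analysed here, so these sites have no value in the cell type their genes mark.

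Neighbouring members of 1 gene differed in where they were acetylated. Of the 6 members at Elmo1, the promoter site had 1005 to 2000 covered bases in all 14 libraries, and 2 sites within the gene had 0 in all 14. At Lyn, a Src family kinase of myeloid cells, 4 members were assigned: the site 28831 bases from the gene had 852 to 2000 bases in all 14 libraries, and a site inside the gene had 2000 and 2000 in cDC1, 1243 and 1904 in MDP and 0 elsewhere. At Parp8 1 site had 2000 bases in both cDC1 libraries and 0 in the other 12, and another had 2000 in all libraries but the 2 of IRF8KO LMPP, with 621 and 1244. At Map2k6, a kinase upstream of p38, 1 of 4 sites was full in cDC1 and empty elsewhere, and 2 had no covered base in any library.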
